A study of Mus musculus with 6 samples.

Results

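Oxidative phosphorylation is carried out by the 5 enzyme complexes of the inner mitochondrial membrane. The genes described here are the nuclear genes whose symbols begin with Nduf followed by a, b, c, s or v (complex I), Sdh followed by a, b, c or d (complex II), Uqcr (complex III), Cox followed by a number from 4 to 8 (complex IV) or Atp5 (complex V). The rule found 89 genes among 19938 genes that had a probeset with a single gene symbol. By symbol they divide into 36 complex I subunits and 7 complex I assembly factors (the Ndufaf genes, which the spelling of the rule brings in). The others are 4 subunits of complex II, 8 of complex III, 17 of complex IV and 17 of complex V. Ndufa4, now assigned to complex IV, and its paralogue Ndufa4l2 are counted with complex I by their symbols. The rule uses names and no measured value, and all 89 genes entered the fit because no filter on low values was applied.

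Complexes I and II pass electrons from NADH and succinate to ubiquinone, complex III passes them on to cytochrome c, and complex IV reduces oxygen. Complexes I, III and IV pump protons, and complex V, the ATP synthase, uses the proton gradient to make ATP. Pluripotent cells are known for a high rate of glycolysis, and reprogramming of fibroblasts is known to be accompanied by a shift away from oxidative metabolism.

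The knockdown lines were 3 mouse induced pluripotent stem (iPS) clones named shECAD 4, 8 and 9. They were derived from OG2 embryonic fibroblasts, which carry a fluorescent Oct4 reporter, by retroviral Sox2, Klf4, Oct4 and c-Myc together with a retroviral short hairpin RNA (shRNA) against E-cadherin, the cell adhesion protein encoded by Cdh1. The comparison lines were 3 clones, Ctrl 2, 3 and 4, which received the same 4 factors and an shRNA against luciferase, an enzyme foreign to mouse. All clones were split onto feeder cells at day 6, picked at day 14 and kept on feeders that were removed before RNA extraction, and each gave 1 whole-transcript microarray from 100 ng of RNA. Each line is a single clone, and no label gives separate infections, so the p-values below measure only the spread between clones.

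Values are log2 expression values, and every fold change is shECAD minus control on that scale with n = 3 clones per group. A gene was called when its adjusted p was below 0.05 in limma's moderated test with Benjamini-Hochberg adjustment over all 19938 genes. Cdh1, the target of the shRNA, read 6.75, 6.92 and 7.81 in shECAD clones 4, 8 and 9, against 9.18, 9.60 and 9.07 in Ctrl 2, 3 and 4, with shECAD 9 the highest of its group. It fell by 2.13 on the log2 scale (SE 0.27, limma adjusted p = 0.00683), to 22.9% of the control level (95% interval 15.2% to 34.4%). The array medians ranged from 5.20 to 5.30 in the shECAD clones and from 5.11 to 5.22 in the control clones. Pluripotency genes were present in both groups: Pou5f1 read 10.77, 10.72 and 10.28 in shECAD clones 4, 8 and 9, and 10.70, 10.72 and 10.50 in Ctrl 2, 3 and 4. None of the 12 pluripotent cell markers was called by limma. At an unadjusted p below 0.05, 4 were lower (against 9.07% of all genes) and 0 higher (against 8.96% of all genes). The median log2 fold change of the 12 was -0.39. That median was 0.0075 without shECAD 9 and -0.20 without Ctrl 4. Of 22 measured fibroblast and feeder markers, 13 rose (against 1.9% of all genes) and 0 fell (against 1.23% of all genes). Their mean log2 level was 7.15, 7.47 and 7.20 in the shECAD clones, against 6.58, 6.17 and 5.61 in the control clones, with no overlap. The count of 13 became 14 without Ctrl 2, 6 without Ctrl 3, Ctrl 4 or shECAD 4, 4 without shECAD 8 and 7 without shECAD 9. The part of these fibroblast and feeder transcripts in the results below was not tested, and in RNA from whole cultures fewer cells of a type and less RNA per cell cannot be told apart.

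Of the 89 genes, 1 fell and 0 rose. The one that fell was Ndufaf1, an assembly factor of complex I. Across all genes 1.23% were called lower and 1.9% higher, and the share called lower among the 89 (1.12%) lay near that background. At an unadjusted limma p below 0.05, 18 of the 89 genes (20.2%) were lower and 0 higher, where 9.07% of all genes were lower and 8.96% higher. With every array centred on its own median, 2 of the 89 fell and 0 rose, where 1.89% of all genes were called lower and 1.52% higher, and at an unadjusted p below 0.05 the counts were 23 lower (13.3% of all genes) and 0 higher (5.99% of all genes). The second gene called in the centred values was Ndufs5. Simulated data had 50 genes of any level changed by each tested size, a share not matched to these data. There the fit called 2% of true changes of 0.5 log2 units and 40% of changes of 1. A gene that was not called may therefore still differ. For 85 of the 89 genes the 95% interval of the fold change lay within a 2-fold change in either direction. The exceptions were Ndufaf1, the complex I genes Ndufs5 and Ndufb2, and the complex V gene Atp5md, whose intervals reached past a 2-fold decrease.

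**Figure D1:**
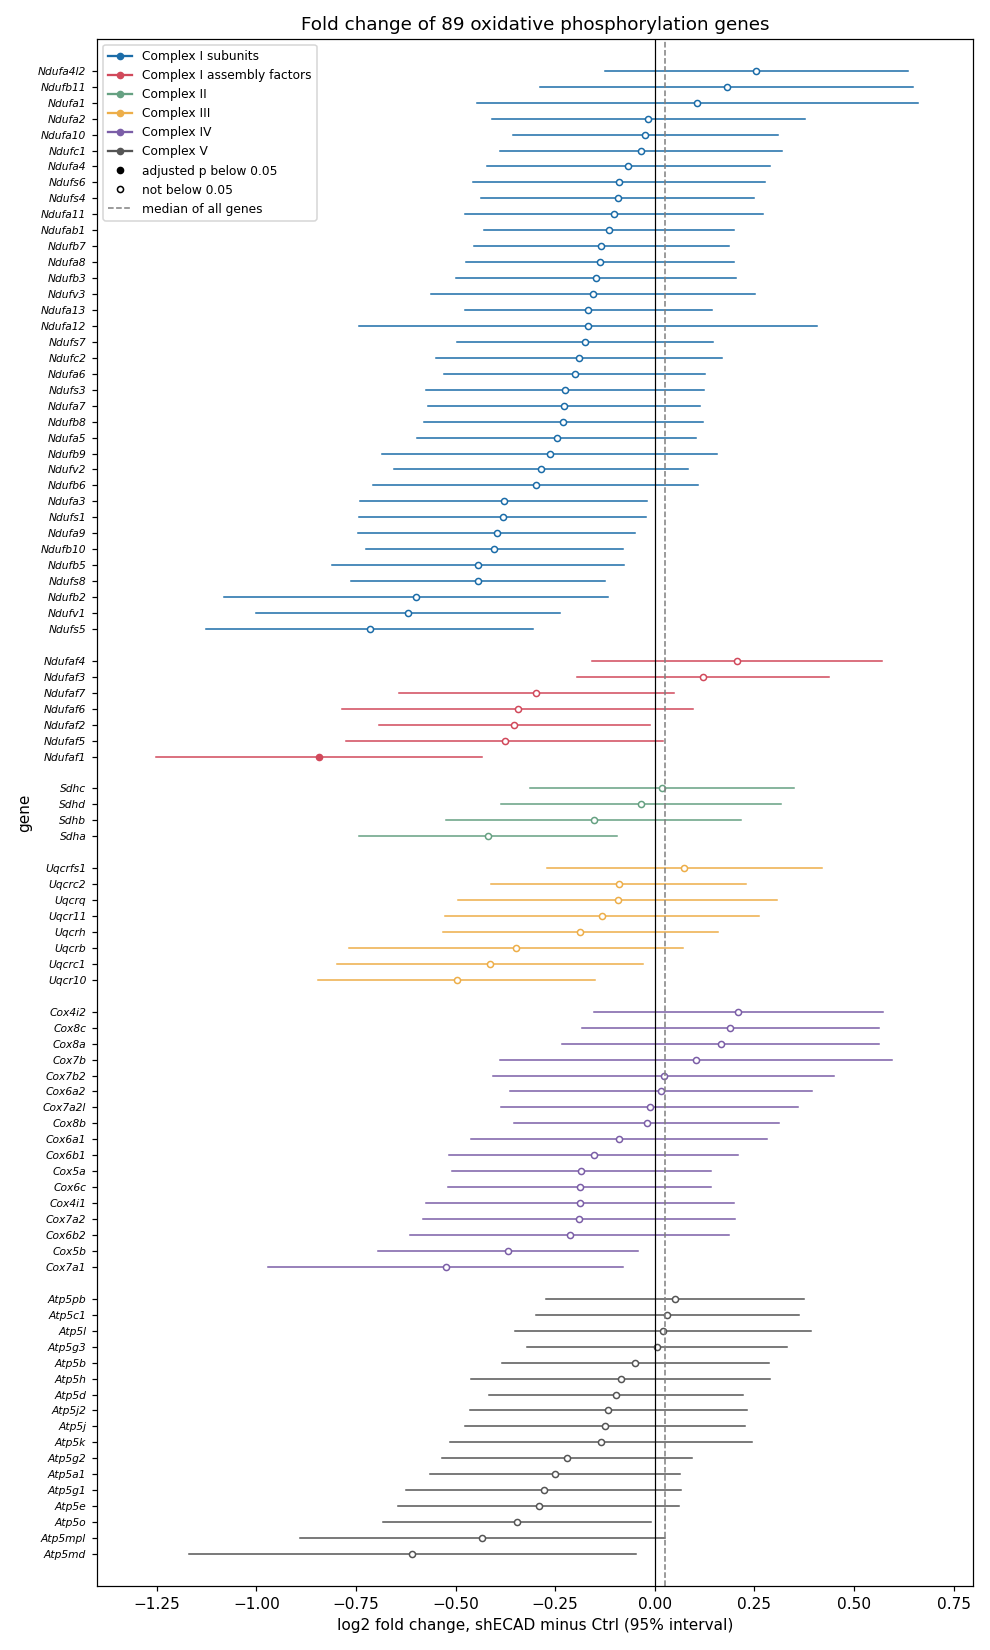
Log2 fold change (shECAD minus control, horizontal axis) with its 95% interval for each of the 89 genes, grouped by complex. The filled point marks Ndufaf1, the called gene, and the dashed line marks the median of all genes at 0.025. Most points lie left of both lines, and most intervals cross 0.

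Most of the remaining genes had small negative fold changes. A negative fold change was found in 72 of the 89 genes (80.9%), where 46.3% of all genes had one, and the median was -0.17 against 0.025 over all genes. All shECAD clones lay below all control clones in 31 of the 89 genes (34.8%), where 12.5% of all genes did so. The opposite arrangement was found in 1 of the 89, the assembly factor gene Ndufaf3, where 11.1% of all genes showed it. In the centred values 80 of the 89 fold changes were negative (59.2% of all genes), the median was -0.25 against -0.062 over all genes, and 37 genes (41.6%, against 16.6% of all genes) had all shECAD clones below all control clones, with 0 the other way round (7.69% of all genes).

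NRF1 is known to bind promoters of many respiratory chain genes, and its motif was searched in the 250 bases before the start of each gene in RefSeq (GRCm38.p6), where 73 of the 89 genes had a window. The letters GCGCA, then any base, then GCGC, on either strand, were found in 13 of the 73 genes (17.8%), in 4.23% of all 27025 genes with a window and in 6.4% of the 15614 that were also measured on the arrays. The 13 were Ndufa5, Ndufa8, Ndufa11, Ndufs5, Ndufs6, Ndufaf4, Sdha, Sdhd, Cox6a1, Atp5c1, Atp5g2, Atp5h and Atp5k. Their median log2 fold change was -0.10, against -0.18 for the 60 without a match. The GABPA letters CCGGAAGT were found in 3 of the 73 (4.11%), against 3.23% of all genes and 4.51% of the measured genes. The YY1 letters AAGATGGC were found in 1 (1.37%), against 1.83% of all genes and 1.85% of the measured genes, with no overlap between motifs in these windows. A match describes these letters and is not evidence of binding.

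The windows of the called gene and of the most negative subunit genes of complexes I and II follow, 5′ to 3′ on the strand of the gene, with NRF1 matches in capitals. Sdha has 3 matches and Ndufs5 1, and Ndufaf1 has no match to any of the 3 motifs in this window. The positions are chr2:119662835-119663084 for Ndufaf1, chr4:123718187-123718436 for Ndufs5 and chr13:74350241-74350490 for Sdha, all on the minus strand of GRCm38.p6.
Ndufaf1: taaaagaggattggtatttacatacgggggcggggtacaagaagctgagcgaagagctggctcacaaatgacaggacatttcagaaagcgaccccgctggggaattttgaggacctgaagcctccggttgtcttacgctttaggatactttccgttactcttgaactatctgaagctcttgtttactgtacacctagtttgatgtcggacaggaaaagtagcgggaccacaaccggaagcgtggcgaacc
Ndufs5: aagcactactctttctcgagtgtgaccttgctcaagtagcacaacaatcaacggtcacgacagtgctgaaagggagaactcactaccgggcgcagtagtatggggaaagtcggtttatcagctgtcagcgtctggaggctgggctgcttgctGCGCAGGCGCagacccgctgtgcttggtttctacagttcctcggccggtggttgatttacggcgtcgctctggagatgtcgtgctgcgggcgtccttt
Sdha: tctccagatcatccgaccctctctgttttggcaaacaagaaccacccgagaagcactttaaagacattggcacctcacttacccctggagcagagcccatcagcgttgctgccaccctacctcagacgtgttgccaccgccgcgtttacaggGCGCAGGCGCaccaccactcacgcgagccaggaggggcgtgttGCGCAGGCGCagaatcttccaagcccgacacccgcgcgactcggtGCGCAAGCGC

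Genes with a mean log2 level of 7 or more had lower fold changes than dimmer genes in general, and the 89 genes are bright. The median gene of the 89 had a mean log2 value of 8.25, where the median over all genes was 5.40. Among genes with a mean level from 7 to below 9, the median fold change was -0.15 for the 43 members in that range and -0.15 for all 3899 genes there. From 9 to below 11 it was -0.19 for 24 members and -0.12 for all 829 genes, and from 5 to below 7 it was -0.22 for 12 members and 0.016 for all 6661 genes. In the range from 7 to below 9, all shECAD clones lay below all control clones in 16 members (37.2%) and in 26.3% of all genes. From 5 to below 7 the shares were 41.7% of members and 15.1% of all genes, and from 9 to below 11 they were 29.2% and 23.9%. After quantile normalization, which gives every array the same distribution of values, the median of the 89 genes was -0.061. It was then -0.14 for members and -0.00065 for all genes from 5 to below 7. From 7 to below 9 the medians were -0.048 and -0.034, and from 9 to below 11 they were -0.10 and -0.029. Whether signal level accounts for the negative fold changes was not tested.

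**Figure D2:**
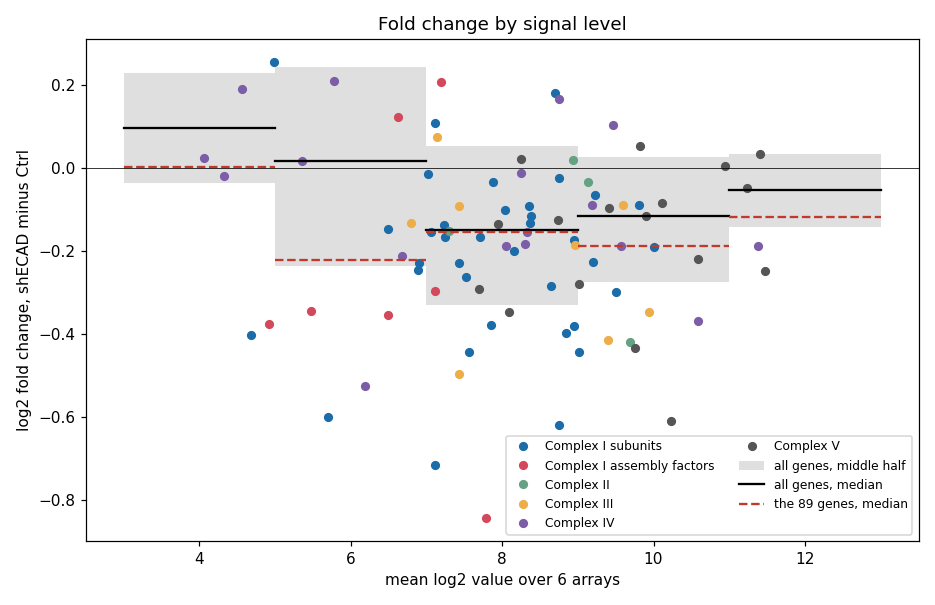
Log2 fold change (shECAD minus control, vertical axis) against the mean log2 value over the 6 arrays for the 89 genes, coloured by complex. Black lines and grey bands give the median and the middle 50 percent of all genes in ranges of mean level, and dashed lines give the median of the 89 genes there. Between 7 and 9 the medians of the 89 genes and of all genes both lie at -0.15.

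Clone shECAD 9 gave the lowest value of the 6 arrays in 49 of the 89 genes (55.1%), where it was lowest in 21.7% of all genes. The highest value lay in Ctrl 3 for 33 genes and in Ctrl 4 for 30. Over all probesets, the array of shECAD 9 had the narrowest spread (SD 2.11, upper quartile 6.77). The array of Ctrl 3 had the widest (SD 2.26, upper quartile 7.01). The share over all genes includes many dimmer genes, and the part of array spread in these counts was not tested. Averaged over the 89 genes, the log2 level was 8.09, 8.11 and 7.96 in shECAD clones 4, 8 and 9, against 8.16, 8.26 and 8.28 in Ctrl 2, 3 and 4. The groups did not overlap in this average, and Ctrl 2 lay closest to the shECAD clones. The mean log2 level of the 12 pluripotent cell markers was 9.36, 9.34 and 8.78 in the shECAD clones and 9.40, 9.28 and 9.62 in the control clones, so that shECAD 9 was lowest there too. The part of this in the values of the 89 genes was not tested. With each clone left out in turn, the median fold change of the 89 genes ran from -0.21 to -0.14.

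**Figure D3:**
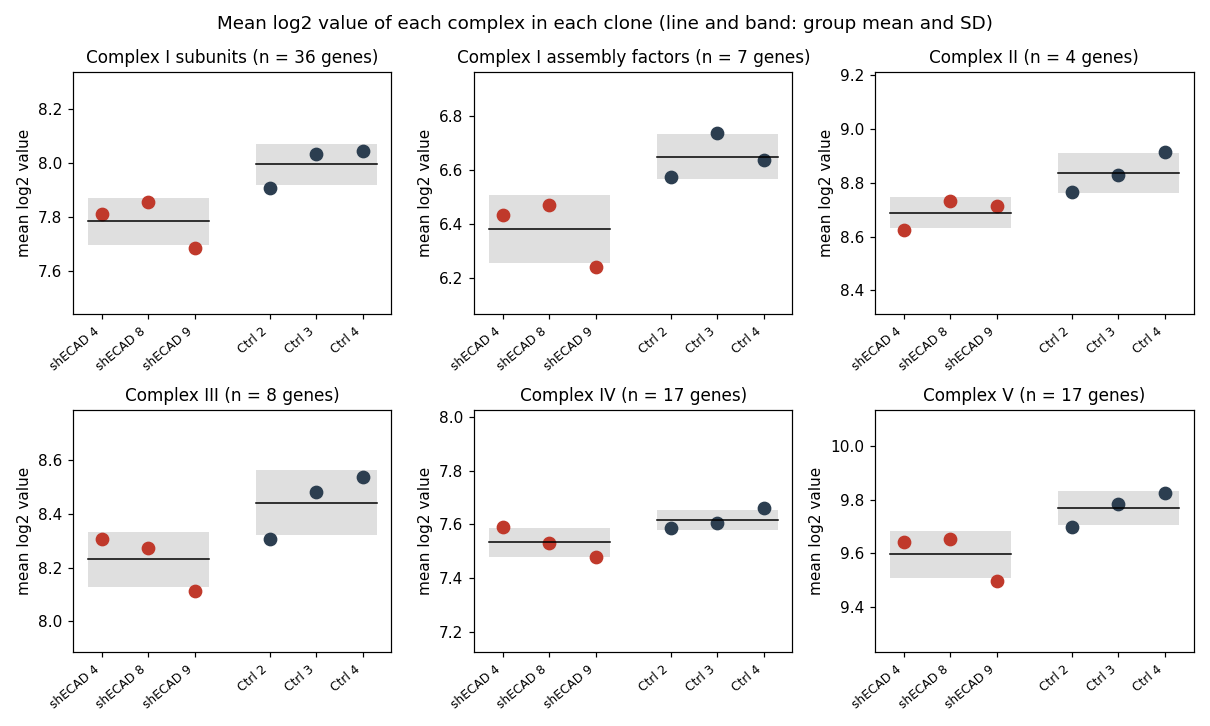
Mean log2 value of the genes of each complex (vertical axis) in each clone, with the shECAD clones left of the control clones. Lines and bands give the mean and SD of the 3 clone means of each group, and each panel spans the same range of log2 units. The shECAD clones lie below all control clones for complex I subunits, complex I assembly factors, complex II and complex V, and 1 shECAD clone reaches the lowest control clone for complexes III and IV.

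Complex I carries 2 kinds of subunits, the core ones, among them those that hold the flavin and the iron-sulfur clusters, and the accessory ones around them. No complex I subunit gene was called by limma on the values as deposited. At an unadjusted p below 0.05, 9 were lower (against 9.07% of all genes) and 0 higher (against 8.96% of all genes). Of the 36, 33 had a negative fold change, the median was -0.18, and the mean level was 7.78 ± 0.088 in shECAD clones and 8.00 ± 0.076 in control clones (SD over clones, n = 3 each). The 6 core subunit genes in the set were grouped after their values had been seen. All 6 had negative fold changes, from -0.62 for Ndufv1 to -0.17 for Ndufs7, and a median of -0.33, where the 30 accessory genes had a median of -0.16.

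Ndufv1, which encodes the subunit that binds NADH and flavin, read 8.31, 8.68 and 8.35 in shECAD clones 4, 8 and 9, against 8.98, 9.29 and 8.92 in Ctrl 2, 3 and 4. The groups did not overlap, and the log2 fold change of -0.62 ± 0.17 (SE) did not pass the test (limma adjusted p = 0.0838). It passed in the fit with an intensity trend and a robust prior (limma adjusted p = 0.0372). Ndufs8, which encodes an iron-sulfur subunit, read 7.28, 7.29 and 7.43 in the shECAD clones and 7.81, 7.73 and 7.80 in the control clones, again without overlap (-0.44 ± 0.14, limma adjusted p = 0.13). Ndufs1, the gene of the largest iron-sulfur subunit, had a log2 fold change of -0.38 ± 0.16 (limma adjusted p = 0.249), with shECAD values of 8.84, 8.92 and 8.51 and control values of 9.09, 9.23 and 9.09.

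Among the accessory subunits, Ndufs5 had the most negative fold change. It read 6.39, 6.84 and 7.05 in shECAD clones 4, 8 and 9, against 7.52, 7.51 and 7.40 in Ctrl 2, 3 and 4. The control clones were close together and the shECAD clones were spread over a wider range below them, with shECAD 4 the lowest. The log2 fold change was -0.72 ± 0.19 (SE), or 60.9% of the control level (95% interval 45.8% to 81.0%), and did not pass the test on the values as deposited (limma adjusted p = 0.0693). After median centring it fell by 0.80 on the log2 scale and was called (limma adjusted p = 0.0408). With 1 clone left out from the centred values, it was called in 1 of the 6 fits, the one without shECAD 9. Another probeset, annotated to both Ndufs5 and its pseudogene Ndufs5-ps, had a log2 fold change of -0.28 and was not called, so the size of the difference depends on the probeset read.

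Some genes of further accessory subunits of the membrane arm were also without overlap and below the test. In others the groups overlapped, namely Ndufb3, Ndufb6, Ndufb7, Ndufb8, Ndufb9, Ndufb11, Ndufc1 and Ndufc2. Ndufb2 read 5.64, 5.65 and 4.90 in the shECAD clones and 5.79, 6.02 and 6.17 in the control clones (-0.60 ± 0.22, limma adjusted p = 0.178). Ndufb5 had a log2 fold change of -0.44 and Ndufb10 one of -0.40, and the Ndufb10 probeset lay below the median of every array. At the other end, Ndufa4l2, a paralogue of Ndufa4 that is known as a target of hypoxia-inducible factor, had the largest positive fold change (0.26 ± 0.17, limma adjusted p = 0.48). It read 5.27, 4.81 and 5.27 in the shECAD clones and 4.87, 4.76 and 4.94 in the control clones, so that shECAD 8 lay among the control values. Ndufa4 itself, named for complex I and now assigned to complex IV, had a log2 fold change of -0.066.

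Ndufb4, left out by the rule because its probesets carry a second symbol (Ndufb4b), had log2 fold changes of -0.54 and -0.40 on its pair of probesets. Neither was called.

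The assembly factors of complex I build the enzyme and do not remain in it. Of the 7 Ndufaf genes, 5 had a negative fold change and the median was -0.34. Ndufaf1 read 7.59, 7.50 and 7.01 in shECAD clones 4, 8 and 9, against 8.10, 8.36 and 8.17 in Ctrl 2, 3 and 4. All shECAD clones lay below all control clones, with shECAD 9 the lowest. The mean was 7.37 ± 0.31 in shECAD clones and 8.21 ± 0.14 in control clones (SD, n = 3 each). It fell by 0.84 on the log2 scale (SE 0.18, limma adjusted p = 0.0385), to 55.8% of the control level (95% interval 42.0% to 74.0%). An exact permutation test of both tails gave p = 0.1, the smallest that 3 clones against 3 allow. With any 1 clone left out, the log2 fold change stayed between -0.95 and -0.67 and the gene was no longer called, with limma adjusted p-values from 0.0604 (without Ctrl 2) to 0.125 (without Ctrl 4). Nor was Ndufaf1 called in a fit over all 28853 probesets in place of 1 per gene (limma adjusted p = 0.0735).

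Ndufaf1 works in the mitochondrial complex I intermediate assembly complex, which joins early parts of the membrane arm. Its partners there do not carry Nduf symbols and were in a list of 32 measured assembly factors of all complexes. The median log2 fold change of the 32 was -0.20. With an unadjusted limma p below 0.05, 8 were lower (against 9.07% of all genes) and 0 higher (against 8.96% of all genes). By the adjusted p 1 fell (against 1.23% of all genes) and 0 rose (against 1.9% of all genes). The gene that fell was Ecsit, one of these partners, which also acts in innate immune signalling. Ecsit read 6.52, 6.92 and 6.50 in the shECAD clones, against 7.53, 7.53 and 7.53 in the control clones. It fell by 0.89 on the log2 scale (SE 0.16, limma adjusted p = 0.0227), and the control values were almost equal. It was no longer called without Ctrl 3, Ctrl 4, shECAD 4 or shECAD 9, with limma adjusted p-values up to 0.087 (without Ctrl 4). The other 3 partners were singled out after their values had been seen and were not called. Tmem126b had a log2 fold change of -0.63 ± 0.27 (SE), Acad9 one of -0.17 ± 0.17 and Timmdc1 one of -0.014 ± 0.15, with limma adjusted p-values of 0.251, 0.661 and 0.975.

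The remaining Ndufaf genes were not called. Ndufaf5 and Ndufaf7, which encode enzymes that modify core subunits during assembly, had log2 fold changes of -0.38 and -0.30. Ndufaf2 had one of -0.35. These 3 genes had all shECAD clones below all control clones. Ndufaf3 and Ndufaf4, whose products act together on an early assembly intermediate, had log2 fold changes of 0.12 and 0.21. Ndufaf3 read 6.66, 6.68 and 6.73 in the shECAD clones and 6.65, 6.52 and 6.54 in the control clones.

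**Figure D4:**
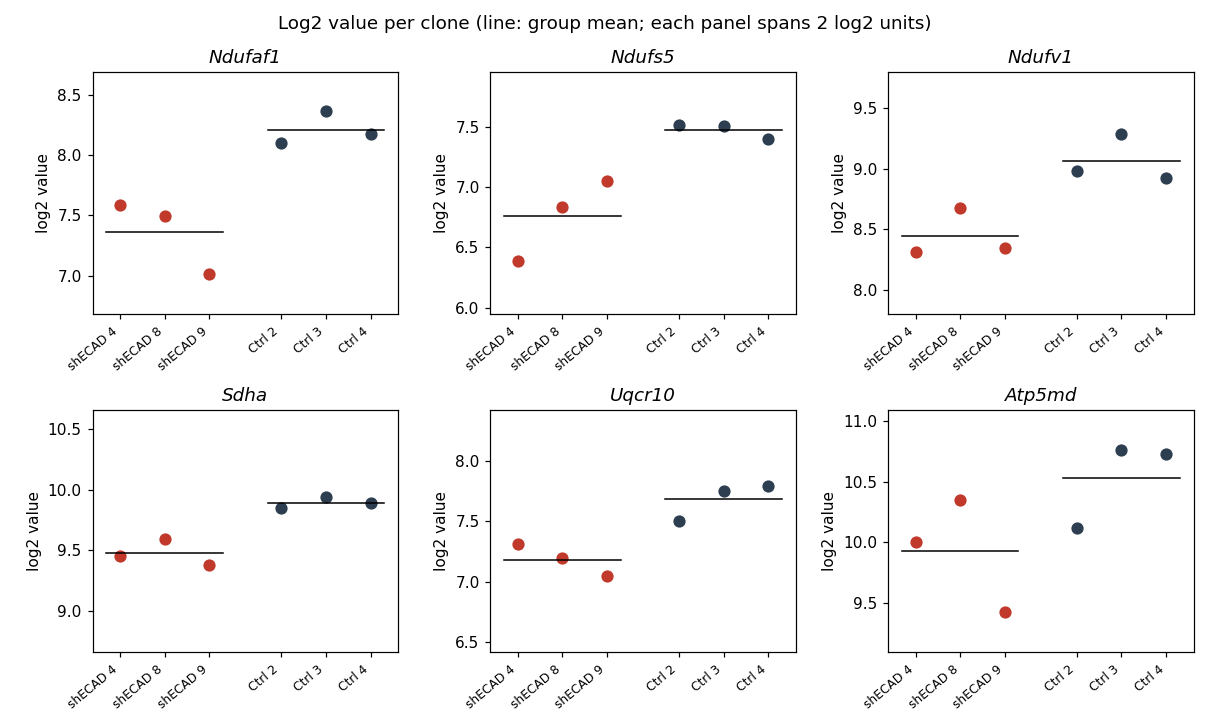
Log2 value (vertical axis) of 6 genes in each clone, with the shECAD clones left of the control clones and a line at each group mean. Each panel spans the same range of log2 units. In Ndufaf1, Ndufs5, Ndufv1, Sdha and Uqcr10 all shECAD clones lie below all control clones, and in Atp5md they overlap.

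Complex II, succinate dehydrogenase, takes electrons from the citric acid cycle. None of its 4 genes was called by limma, and their median log2 fold change was -0.093. At an unadjusted p below 0.05, 1 was lower (against 9.07% of all genes) and 0 higher (against 8.96% of all genes). Sdha, which encodes the flavoprotein with the succinate site, read 9.45, 9.59 and 9.37 in shECAD clones 4, 8 and 9, against 9.84, 9.94 and 9.89 in Ctrl 2, 3 and 4. The groups did not overlap, and the log2 fold change was -0.42 ± 0.15 (SE, limma adjusted p = 0.16). The iron-sulfur subunit gene Sdhb had a log2 fold change of -0.15. The membrane anchor genes Sdhc and Sdhd had 0.018 and -0.034, and Sdhc was -0.070 after median centring.

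In complex III, 7 of 8 genes had a negative fold change and the median was -0.16. None was called by limma. At an unadjusted p below 0.05, 2 were lower (against 9.07% of all genes) and 0 higher (against 8.96% of all genes). Uqcr10, the gene of a small membrane subunit, read 7.31, 7.19 and 7.05 in the shECAD clones, against 7.51, 7.75 and 7.79 in the control clones (-0.50 ± 0.16, limma adjusted p = 0.122). Uqcrc1, the gene of a core protein, read 9.20, 9.35 and 9.02 in the shECAD clones and 9.42, 9.52 and 9.87 in the control clones (-0.41 ± 0.17, limma adjusted p = 0.241). Neither gene's groups overlapped. Uqcrb, whose product lies near the ubiquinone site, had a log2 fold change of -0.35 with overlap. Uqcrfs1, the gene of the Rieske iron-sulfur protein, had 0.074, and -0.014 after median centring.

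In complex IV, cytochrome c oxidase, 11 of 17 genes had a negative fold change and the median was -0.090. None was called by limma. At an unadjusted p below 0.05, 2 of the 17 were lower (against 9.07% of all genes) and 0 higher (against 8.96% of all genes). Cox5b, the gene of a subunit that binds zinc, read 10.41, 10.47 and 10.32 in shECAD clones 4, 8 and 9, against 10.65, 10.85 and 10.82 in Ctrl 2, 3 and 4. The groups did not overlap (-0.37 ± 0.15, limma adjusted p = 0.221). A dimmer Cox5b probeset read 5.56, 6.33 and 5.59 in the shECAD clones and 6.51, 7.78 and 6.26 in the control clones, with a log2 fold change of -1.02, and the mean of both probesets gave -0.70 (limma adjusted p = 0.134). Cox4i1, the ubiquitous form of subunit 4, had a log2 fold change of -0.19, with values of 9.62, 9.43 and 9.37 in the shECAD clones and 9.49, 9.53 and 9.97 in the control clones. Cox7c, left out by the rule because its probesets carry a second symbol (Gm12338), had log2 fold changes of -0.13, -0.40 and -0.44 on its 3 probesets and was not called on any.

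Several complex IV subunits exist in forms restricted to certain tissues. Cox7a1, the form of heart and skeletal muscle, had the most negative fold change of the complex on the values as deposited. It read 6.01, 6.28 and 5.49 in the shECAD clones and 6.42, 6.42 and 6.52 in the control clones, without overlap (-0.52 ± 0.20, limma adjusted p = 0.202). Without shECAD 9 it was -0.31, against -0.33 for Cox5b, and Cox5b was also more negative with the mean of all probesets. Its ubiquitous counterpart Cox7a2 had a log2 fold change of -0.19, and Cox7a2l, whose product joins complexes III and IV into supercomplexes, had -0.013. Cox4i2, the form of subunit 4 found in lung and induced by hypoxia, had 0.21 ± 0.16. The testis form Cox6b2 had -0.21, against -0.15 for the ubiquitous Cox6b1. Cox7b2, Cox8b and Cox8c, restricted forms of subunits 7b and 8, lay below the median of every array, and their log2 fold changes were 0.022, -0.020 and 0.19. Cox8a, the ubiquitous form of subunit 8, had 0.17. Cox6a1 and its muscle form Cox6a2 had -0.090 and 0.016. The difference between a restricted form and its partner was not tested.

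Complex V consists of the catalytic F1 head, the membrane ring of c subunits and the stalks that join them. Of its 17 genes 13 had a negative fold change and the median was -0.13. None was called by limma. At an unadjusted p below 0.05, 2 of the 17 were lower (against 9.07% of all genes) and 0 higher (against 8.96% of all genes). Atp5b, the gene of the catalytic beta subunit, read 11.27, 11.26 and 11.11 in the shECAD clones and 11.15, 11.42 and 11.22 in the control clones, with overlap (-0.049 ± 0.15, limma adjusted p = 0.899). Atp5a1, the gene of its alpha partner, read 11.34, 11.32 and 11.39 in the shECAD clones and 11.58, 11.55 and 11.66 in the control clones, without overlap (-0.25 ± 0.14, limma adjusted p = 0.388). The 3 genes Atp5g1, Atp5g2 and Atp5g3 encode the same c subunit with different import sequences. Their log2 fold changes were -0.28, -0.22 and 0.0051, and the groups did not overlap for Atp5g1 and Atp5g2.

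The most negative fold changes of complex V belonged to small membrane subunits. Atp5md, which takes part in the dimerization of the enzyme, read 10.00, 10.35 and 9.43 in the shECAD clones, against 10.12, 10.76 and 10.73 in the control clones. The groups overlapped through shECAD 8 and Ctrl 2 (-0.61 ± 0.25, limma adjusted p = 0.238). Its 2 dimmer probesets had log2 fold changes of -0.56 and -0.44. Atp5mpl, the gene of a small proteolipid, had -0.43 with overlap, and Atp5o, the gene of the stalk protein that confers oligomycin sensitivity, had -0.35 without overlap. The most positive values of the complex were 0.052 for Atp5pb, 0.032 for Atp5c1 and 0.021 for Atp5l, and all 3 were negative after median centring.

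Of the 89 genes, 3 lie on the X chromosome, the complex I accessory genes Ndufa1 and Ndufb11 and the complex IV gene Cox7b, and they shared a pattern among the clones that was noticed after the values had been seen. Each was lowest in shECAD 9. Ndufa1 read 7.32, 7.61 and 6.58 in shECAD clones 4, 8 and 9, against 6.96, 6.89 and 7.34 in Ctrl 2, 3 and 4. Ndufb11 read 9.00, 9.09 and 8.28 in the shECAD clones, against 8.65, 8.61 and 8.56 in the control clones, and Cox7b read 9.95, 9.57 and 9.00, against 9.38, 9.36 and 9.48. On the probeset used for each gene, shECAD 9 lay between 0.76 and 0.88 log2 units below the mean of shECAD 4 and 8. Over the 86 autosomal members this difference had a median of -0.11 and ran from -0.75 to 0.50, so its lowest value was close to the X-linked ones. Chromosomes are those annotated for the genes, and the genomic position of each probeset was not checked. The group comparison of these genes gave log2 fold changes of 0.11, 0.18 and 0.10 and no call. Over all 739 X-linked genes shECAD 9 had a median of -0.11 relative to shECAD 4 and 8, and over all other genes one of 0.048.

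The other probeset of Ndufb11 had a log2 fold change of 0.13, and that of Cox7b one of -0.40. This dimmer Ndufb11 probeset read 8.62, 8.91 and 8.29 in the shECAD clones and 8.46, 8.41 and 8.54 in the control clones. The dimmer Cox7b probeset read 7.70, 8.22 and 7.55 in the shECAD clones and 8.00, 8.38 and 8.30 in the control clones. There shECAD 9 was lowest too, while the group difference had the opposite sign. On both dimmer probesets shECAD 9 lay less far below the mean of shECAD 4 and 8 than on the probesets used. Xist, the RNA that coats the inactive X chromosome, read 7.88, 7.31 and 5.87 in shECAD clones 4, 8 and 9, against 5.89, 5.02 and 4.42 in Ctrl 2, 3 and 4. The Y-linked gene Eif2s3y read 4.82, 4.80 and 7.95 in the shECAD clones and 4.50, 8.45 and 3.04 in the control clones. The levels of these genes thus differed among clones of one group, and the part of this in the values of the 3 genes was not tested.

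**Figure D5:**
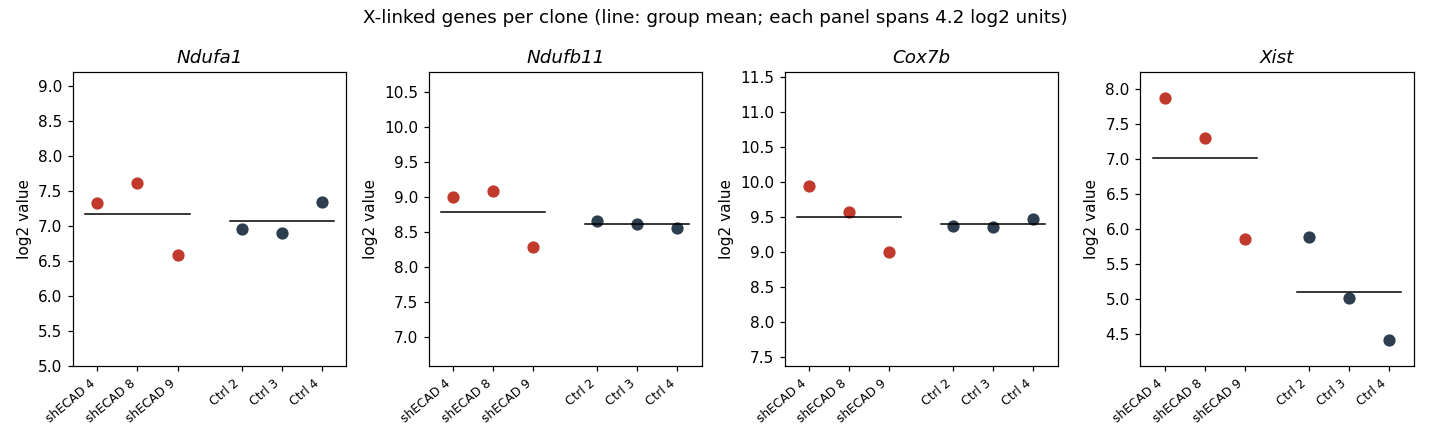
Log2 value (vertical axis) of the X-linked members Ndufa1, Ndufb11 and Cox7b and of Xist in each clone, with the shECAD clones left of the control clones and a line at each group mean. Each panel spans the same range of log2 units. In the 3 members shECAD 9 gives the lowest value of the 6 arrays.

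No gene of 3 further lists of mitochondrial energy metabolism was called. Beside the unadjusted counts given for these lists, 9.07% of all genes were lower and 8.96% higher at an unadjusted p below 0.05. The list of 17 measured electron carriers and exchange proteins had 0 limma calls in each direction, 3 genes lower and 0 higher at an unadjusted p below 0.05, and a median log2 fold change of -0.19, which was -0.087 without shECAD 9 and -0.081 after quantile normalization. Its most negative member was Cyct, the testis form of cytochrome c, which read 5.16, 5.72 and 4.41 in the shECAD clones and 5.66, 7.04 and 7.18 in the control clones (-1.53 ± 0.41, limma adjusted p = 0.074), with overlap between shECAD 8 and Ctrl 2. The somatic cytochrome c gene Cycs had -0.19, and Etfdh, which passes electrons from fatty acid oxidation to ubiquinone, had -0.57. Slc25a31, the germ cell form of the ATP and ADP exchanger, read 4.66, 4.76 and 3.91 in the shECAD clones and 4.93, 6.64 and 4.98 in the control clones (-1.07 ± 0.41, limma adjusted p = 0.199). Without Ctrl 3, the highest clone, it was -0.51. The somatic Slc25a4 and Slc25a5 had -0.0092 and 0.29.

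The 16 measured genes of the citric acid cycle and pyruvate dehydrogenase had 0 limma calls, 3 genes lower and 0 higher at an unadjusted p below 0.05, and a median of -0.19, which was -0.080 after quantile normalization. Of the 16, 14 had a negative fold change. Pdhb, a pyruvate dehydrogenase subunit gene, was the most negative (-0.62 ± 0.18, limma adjusted p = 0.0943), and Dld and Ogdh, genes of dehydrogenase complex subunits, had -0.55 and -0.43. The 16 measured genes of mitochondrial transcription and biogenesis had 0 limma calls, 6 genes lower and 0 higher at an unadjusted p below 0.05, and a median of -0.33. This median was -0.23 after quantile normalization. It ran from -0.46 (without shECAD 8) to -0.23 (without shECAD 9) with 1 clone left out. Among these 16 genes Tfb1m, a mitochondrial rRNA methyltransferase gene, had -0.59, the helicase gene Twnk -0.57 and the coactivator gene Pprc1 -0.40. Nrf1, a transcription factor gene of nuclear mitochondrial genes, had -0.39 ± 0.16 (limma adjusted p = 0.239). The subunit genes of the mitochondrial genome are not analysed here.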

How the data were processed

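For each of the 6 arrays the deposited file holds log2 values by probeset. RMA and Partek are the tools named, per the submitters' processing notes, with no version, setting or build given here. Probesets were named through the platform annotation, and the 21789 of 28853 probesets with 1 gene symbol gave 19938 genes. Each gene was read from its probeset of highest mean level. Other probesets of members were read from a separate fit over all 28853 probesets. Tests used limma 3.58.1 (lmFit and eBayes) in R 4.3.3 on all genes, as deposited and after centring each array on its median, with Benjamini-Hochberg adjustment and a threshold of 0.05. The fit was tested on simulated data with the mean and spread of each gene, in which 50 genes were changed by each size. It called 2% of changes of 0.5 log2 units, 40% of 1, 88% of 2 and 100% of 3. Alternatives were quantile normalization, the mean of all probesets, probesets of several symbols, brighter genes alone, a trend with a robust prior, array weights, a threshold of 0.1 and each clone left out. Arrays have no counts, so that their number limits the precision.

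Named genes are Cdh1, called members, the 3 most positive and 3 most negative members of each complex, the tissue-restricted forms with their partners, and the called or largest-changing genes of 4 pathway lists. Others were chosen after their values were seen. The members and lists were chosen with earlier results of these data known. Background correction and scan batches could not be varied from processed values. Figures were drawn with matplotlib 3.10.9.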

Additional observations from a re-analysis of the deposited data

How the results depend on the processing

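No paired analysis was possible because the clone numbers share only 1 value between the groups and name unrelated clones. Cdh1 was called in every alternative listed here, with log2 fold changes from -2.45 to -1.92 with 1 clone left out. The count of called members, 1 lower and 0 higher, was 0 without any 1 of the 6 clones. It was 2 lower after median centring, among genes at or above the median level and with array quality weights, and 3 lower with an intensity trend and robust prior and at an adjusted p below 0.1. After median centring the 2 calls became between 0 and 1 with 1 clone left out. The median fold change of the members moved to -0.061 after quantile normalization.

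For the complex I assembly factors the median was -0.43 after median centring and ran from -0.42 to -0.24 with 1 clone left out. For complex II it was -0.18 after median centring, -0.18 with array quality weights and 0.026, with the sign turned, after quantile normalization. Quantile normalization also brought the medians to -0.080 for complex I subunits, -0.057 for complex III and -0.022 for complex V, and complex IV had -0.18 among genes at or above the median level. With 1 clone left out the medians ran from -0.15 to -0.040 for complex II, from -0.26 to -0.10 for complex III, from -0.14 to -0.061 for complex IV and from -0.19 to -0.11 for complex V. The call in the list of other assembly factors numbered between 0 and 1 with 1 clone left out. The list of electron carriers held 1 call with array quality weights, and between 0 and 1 with 1 clone left out. The list of the citric acid cycle and pyruvate dehydrogenase held 1 with the intensity trend and robust prior. The cause of these differences was not tested.

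Members with fold changes near 0 and no call changed sign. After median centring 8 members did so, Atp5g3 (-0.083) and, among those named by the rule, Sdhc (-0.070), Uqcrfs1 (-0.014), Atp5pb (-0.036), Atp5c1 (-0.056), Atp5l (-0.067), Cox6a2 (-0.072), Cox7b2 (-0.066). Among the members named by the rule, those that changed sign after quantile normalization were Sdhd (0.095), Cox6a1 (0.022), Cox6a2 (-0.065), Cox7a2l (0.12), Cox7b2 (-0.072), Ndufa4 (0.056), with array quality weights Cox6a2 (-0.080), Cox7a2l (0.085), Cox7b2 (-0.099), and with the mean of all probesets Cox7b (-0.15). With 1 clone left out, the sign varied in 23 of the 89 members, and the 14 among them that the rule named ranged as follows: Ndufa1 -0.11 to 0.40, Sdhc -0.053 to 0.085, Sdhd -0.12 to 0.072, Uqcrfs1 -0.027 to 0.16, Atp5pb -0.00085 to 0.088, Atp5c1 -0.021 to 0.10, Atp5l -0.090 to 0.12, Cox6a1 -0.18 to 0.022, Cox6a2 -0.11 to 0.084, Cox7a2l -0.081 to 0.11, Cox7b -0.12 to 0.36, Cox7b2 -0.15 to 0.14, Cox8b -0.069 to 0.043, Ndufa4 -0.16 to 0.039.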
